A study of Mus musculus with 15 samples.

Results

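The genes described here are 10 genes of bile acid synthesis, transport and control in the mouse: the synthesis enzymes Cyp7a1, Cyp8b1 and Cyp27a1, the uptake carriers Slc10a1, Slco1b2 and Slco1a1, the canalicular exporters Abcb11 and Abcc2, and the nuclear receptors Nr1h4 and Nr0b2. They were chosen by name, and a probe was assigned to a gene through the RefSeq accession given for it on the array. All 10 were among the 15619 genes tested, and each was above background on every liver and neo-liver array. Slc10a1 was measured by 2 probes that differed, and both are given.

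RNA came from female FVB/N mice and was hybridised to one-colour arrays, 1 array per sample. The neo-liver samples (n = 4) are liver tissue that formed under the kidney capsule after 1000000 hepatocytes were placed there. Those hepatocytes came from FVB/N donors aged 8 to 20 weeks that carry a human α1-antitrypsin (hA1AT) transgene. The host liver samples (n = 4) are the injured livers of wild-type FVB/N recipients, and the host kidney samples (n = 4) are kidney tissue of such recipients. The control liver samples (n = 3) are livers of normal FVB/N mice aged 20 weeks. All 3 host tissues share the same history: recipients aged 7 to 9 weeks received monocrotaline, a toxin that causes chronic liver injury, at 70 mg/kg in 2 intraperitoneal doses 2 weeks apart, then the hepatocytes, and were sampled on days 250 to 300 after the transplant at an age of 48 to 55 weeks. Control livers therefore differed from host tissues in age, toxin and transplant at once, and these cannot be told apart. Neo-liver also differed from control liver in its site, in the transgene of its donors and in the kidney signal given below. Its hepatocytes were placed after the monocrotaline doses. These cannot be told apart either.

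Bile acids are made from cholesterol in hepatocytes, either through the classic route that Cyp7a1 starts and limits or through the alternative route in which the mitochondrial enzyme Cyp27a1 acts, while Cyp8b1 adds the hydroxyl group that makes cholic acid. Bile acids returning from the intestine are taken up at the blood side of the hepatocyte by Slc10a1 and Slco carriers and are pumped into the bile canaliculus by Abcb11, with Abcc2 exporting conjugated bilirubin and other conjugates. Inside the cell they bind Nr1h4, the bile acid receptor FXR, which induces Nr0b2, the corepressor SHP, and Abcb11, and SHP lowers Cyp7a1 transcription.

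Promoter sequence is shown for the members whose levels carry the comparisons below, because several of them were called lower in neo-liver. The letters searched belong to known regulators of liver genes. RefSeq's promoter table (build GRCm38.p6) held 9 of the 10 members, with 2 start sites for Slc10a1. Each line gives the 250 bases before the annotated start, read 5′ to 3′ on the gene's strand. Capitals mark matches, on either strand, to AGGTCA (the half-site of many nuclear receptors), TCAAGG (the core of the site bound by Nr5a2) and AAAGTCC (part of the site of Hnf4a). The windows lie at chr1:74713285-74713534 on the plus strand for Cyp27a1, chr12:80968706-80968955 on the minus strand for the first start of Slc10a1 and chr12:80968080-80968329 on the minus strand for its second, chr6:141629268-141629517 on the plus strand for Slco1b2, chr2:69342617-69342866 on the minus strand for Abcb11, chr10:89506659-89506908 on the minus strand for Nr1h4, and chr4:133553126-133553375 on the plus strand for Nr0b2.
Cyp27a1: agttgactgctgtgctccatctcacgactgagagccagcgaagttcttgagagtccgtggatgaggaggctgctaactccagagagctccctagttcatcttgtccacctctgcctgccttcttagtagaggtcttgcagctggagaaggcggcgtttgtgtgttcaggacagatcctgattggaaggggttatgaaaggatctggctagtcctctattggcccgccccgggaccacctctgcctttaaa
Slc10a1, first start: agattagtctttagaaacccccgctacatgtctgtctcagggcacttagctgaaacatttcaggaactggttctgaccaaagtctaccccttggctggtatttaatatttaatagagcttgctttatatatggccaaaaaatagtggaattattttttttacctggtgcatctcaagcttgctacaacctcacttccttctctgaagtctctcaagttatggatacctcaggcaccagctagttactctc
Slc10a1, second start: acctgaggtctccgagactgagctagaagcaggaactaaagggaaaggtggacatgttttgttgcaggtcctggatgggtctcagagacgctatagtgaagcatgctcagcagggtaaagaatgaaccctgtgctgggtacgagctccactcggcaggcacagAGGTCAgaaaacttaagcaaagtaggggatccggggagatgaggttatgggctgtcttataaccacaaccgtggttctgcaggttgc
Slco1b2: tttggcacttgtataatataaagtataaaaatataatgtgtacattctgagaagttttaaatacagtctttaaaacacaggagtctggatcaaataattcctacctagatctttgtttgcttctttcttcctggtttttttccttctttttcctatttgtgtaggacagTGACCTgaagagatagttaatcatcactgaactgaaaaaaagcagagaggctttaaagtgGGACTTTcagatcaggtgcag
Abcb11: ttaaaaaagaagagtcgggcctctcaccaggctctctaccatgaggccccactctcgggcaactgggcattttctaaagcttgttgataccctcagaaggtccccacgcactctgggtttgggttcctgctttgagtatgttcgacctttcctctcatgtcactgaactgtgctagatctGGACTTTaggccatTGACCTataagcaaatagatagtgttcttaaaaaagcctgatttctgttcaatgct
Nr1h4: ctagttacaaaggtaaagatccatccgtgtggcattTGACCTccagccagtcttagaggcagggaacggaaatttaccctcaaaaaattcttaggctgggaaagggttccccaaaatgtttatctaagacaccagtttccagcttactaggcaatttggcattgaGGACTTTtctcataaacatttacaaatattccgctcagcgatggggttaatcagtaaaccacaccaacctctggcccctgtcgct
Nr0b2: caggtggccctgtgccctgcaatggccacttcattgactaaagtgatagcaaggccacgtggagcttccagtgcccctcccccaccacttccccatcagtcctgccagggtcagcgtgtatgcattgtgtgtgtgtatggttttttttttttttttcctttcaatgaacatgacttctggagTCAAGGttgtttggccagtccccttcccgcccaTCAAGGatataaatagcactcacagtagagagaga
AGGTCA was found in 6 of the 9 members in the table, against 14% of all 32851 promoter windows of this length. AAAGTCC was found in 4 of 9 members, against 3.58% of windows. TCAAGG was found in 1 of 9, against 12.5%, and its 2 matches in Nr0b2 begin 68 and 35 bases before the start. No matches overlapped. These are matches of letters and show no binding.

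Levels are log2 signal relative to the 75th percentile of the signals on the same array, so a level of 0 is that percentile, and a difference of 1 is a doubling on the linear scale. Levels are compared between groups for one probe at a time, since probes differ in brightness. A gene was called higher or lower where the Benjamini-Hochberg adjusted p of the limma fit over all 15619 genes was under 0.05. Replicate numbers were taken as mice in the host tissues, as stated under processing. Kidney marker signal was present on all neo-liver arrays. The kidney share, measured over 40 kidney epithelium markers, was 14.98%, 44.5%, 16.3% and 28.7% on neo-liver arrays 1 to 4, and between 0.0116% and 0.0271% on the host liver arrays. Umod, a defining marker of the thick ascending limb of the kidney, averaged 5.59 ± 0.72 in neo-liver and -4.20 ± 1.06 in host liver, where 2 of 4 arrays were above background (SD, n = 4 each). Albumin (Alb), the hepatocyte's main plasma protein, averaged 10.11 ± 0.28 in neo-liver, 10.90 ± 0.23 in host liver and 10.71 ± 0.05 in control liver (SD, n = 4, 4 and 3), and neo-liver was called lower by limma against host liver (adjusted p = 0.00678) and against control liver (adjusted p = 0.0387). These levels depend on the array's 75th percentile. In signal units it was 416 to 676 on neo-liver arrays and 287 to 448 on host liver arrays. On control liver arrays it was 389 to 424, and on host kidney arrays 561 to 874. Its part in the albumin differences was not tested. In bulk tissue, fewer hepatocytes and less RNA per hepatocyte cannot be told apart.

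All 3 synthesis enzymes were above background in neo-liver, and Cyp7a1 and Cyp27a1 were called lower in both neo-liver and host liver than in control liver. Cyp7a1 was at 4.28, 4.32, 3.49 and 0.88 on the 4 neo-liver arrays, at 3.61, 3.57, 2.78 and 2.10 on the host liver arrays, and at 5.99, 6.03 and 5.51 on the control liver arrays. Every neo-liver and host liver array lay below every control liver array, whereas neo-liver and host liver overlapped, and neo-liver array 4 was the lowest of all 11. Relative to the control liver mean on the linear scale, the signal of Cyp7a1 was 22.6 ± 14.6% in neo-liver and 15.1 ± 6.68% in host liver (SD, n = 4 each). The difference from control liver was -2.60 ± 0.68 for neo-liver (log2 ± SE, limma adjusted p = 0.00637) and -2.83 ± 0.68 for host liver (adjusted p = 0.00972). Neo-liver minus host liver was 0.23 ± 0.63 (adjusted p = 0.783), with a 95% interval of -1.13 to 1.59. That interval holds a shift of 1 log2 unit either way, and the sign turned when host liver array 4 or neo-liver array 1 or 2 was left out. In host kidney, Cyp7a1 was below background on all 4 arrays, and neo-liver was at least 503-fold and host liver at least 428-fold higher than host kidney. Here and for other probes below background, the bound was computed on each kidney array from whichever was brighter, the probe itself or the dimmest probe that passed background there.

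**Figure D1:**
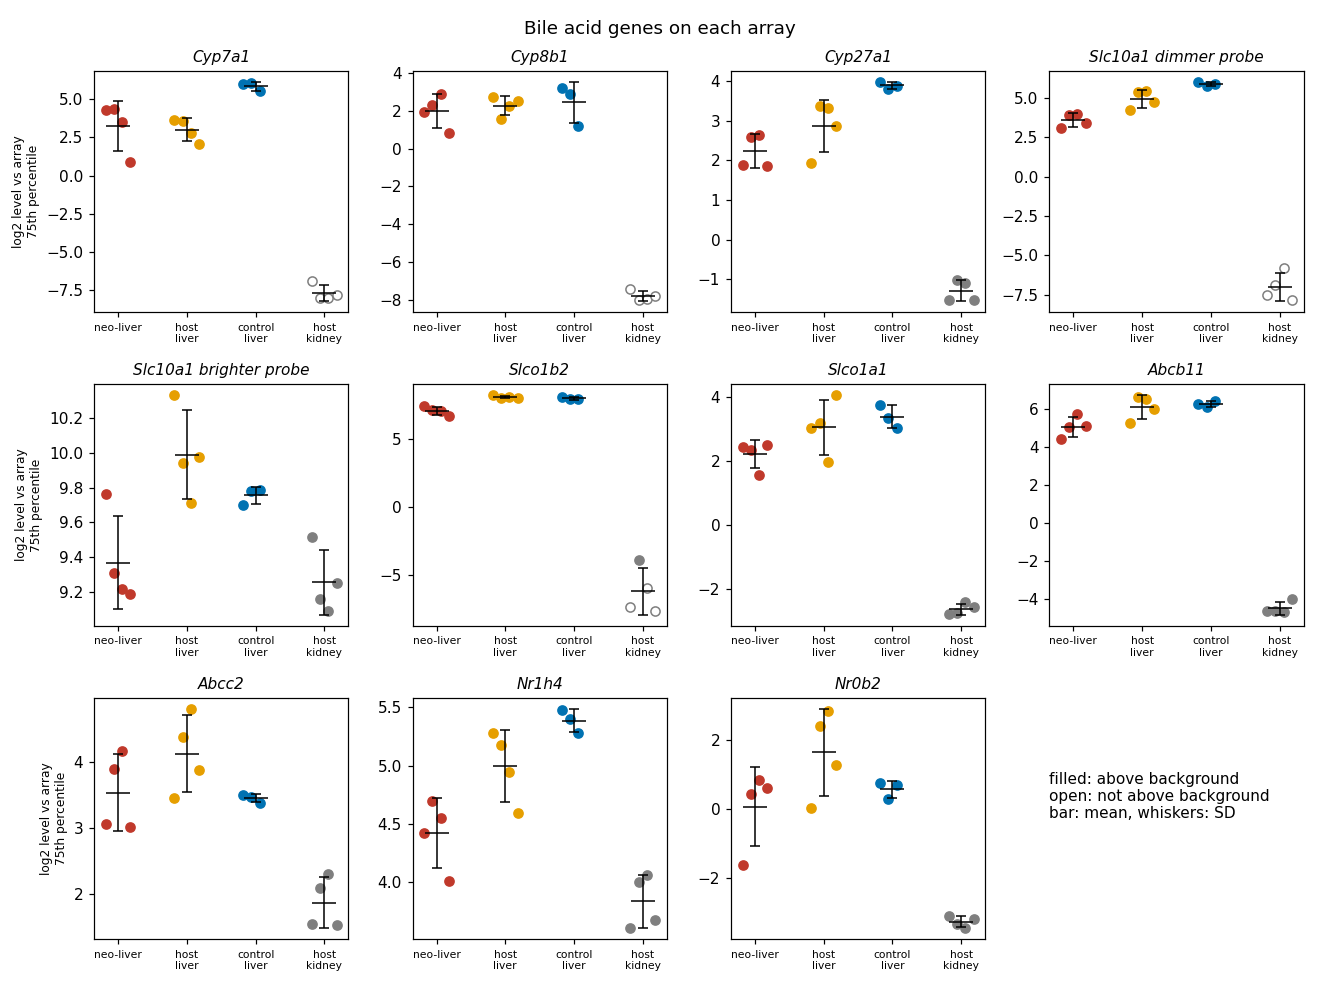
Level of each bile acid gene on each array, as log2 signal relative to the 75th percentile of the array (vertical axis), by group from left to right: neo-liver, host liver, control liver and host kidney. Each point is 1 array, filled where it was above background and open where it was not, and the bar and whiskers are the mean and SD. The neo-liver and host liver points of Cyp7a1 and Cyp27a1 all lie below the control liver points, and the brighter Slc10a1 probe overlaps between neo-liver (9.19 to 9.77) and host kidney (9.09 to 9.52).

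Cyp27a1, the enzyme of the alternative route, was at 1.87, 2.60, 2.63 and 1.87 in neo-liver, at 1.94, 3.37, 3.31 and 2.86 in host liver, and at 3.98, 3.80 and 3.89 in control liver. It followed Cyp7a1 in lying lower on all 8 neo-liver and host liver arrays than on the 3 control liver arrays. Its signal was 33.0 ± 9.66% of the control liver mean in neo-liver and 52.9 ± 20.3% in host liver. The log2 difference from control liver was -1.65 ± 0.31 for neo-liver (limma adjusted p = 0.00071) and -1.02 ± 0.31 for host liver (adjusted p = 0.0307). The host liver call was lost without any single control liver array or without host liver array 4 (adjusted p between 0.0591 and 0.0974). Relative to plasma protein genes (the median of 25 hepatocyte genes on each array) neither call held. The differences there were -1.21 ± 0.46 for neo-liver and -1.44 ± 0.46 for host liver (adjusted p = 0.0698 and 0.0515). The host liver difference was thus larger under that scaling, with a larger SE. Neo-liver minus host liver was -0.63 ± 0.29 (adjusted p = 0.0879), and with mouse as a block this difference was called (adjusted p = 0.0187). Kidney makes Cyp27a1 too: host kidney was at -1.51, -1.02, -1.11 and -1.51, and between 1.09% and 3.27% of the signal on a neo-liver array matched the array's kidney share.

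Cyp8b1, the sterol 12α-hydroxylase, varied widely within every liver group. It was at 1.95, 2.31, 2.89 and 0.81 in neo-liver, at 2.71, 1.56, 2.26 and 2.50 in host liver, and at 3.23, 2.91 and 1.21 in control liver. The liver groups overlapped, and the control livers alone spanned the range from 36.0% to 146.6% of their own mean. The difference was -0.27 ± 0.47 for neo-liver minus host liver, -0.46 ± 0.50 for neo-liver minus control liver and -0.19 ± 0.50 for host liver minus control liver (limma adjusted p = 0.659, 0.470 and 0.810). Cyp8b1 was below background on all 4 host kidney arrays, and neo-liver was at least 211-fold and host liver at least 254-fold higher than host kidney.

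Of the uptake carriers, Slc10a1 was called lower in neo-liver than in host liver by both of its probes. The brighter probe's sign in that comparison depended on the scaling. Slco1a1 was called lower in neo-liver than in control liver. For Slc10a1 (NTCP, the sodium-dependent bile acid carrier of the hepatocyte), the 2 probes disagreed about the kidney. The brighter probe, which the rule of taking the brightest probe selected, was at 9.77, 9.31, 9.22 and 9.19 in neo-liver, 10.33, 9.94, 9.71 and 9.98 in host liver, 9.70, 9.78 and 9.79 in control liver, and 9.52, 9.16, 9.09 and 9.25 in host kidney. On this probe neo-liver overlapped host kidney, with a neo-liver minus host kidney difference of 0.11 ± 0.16 (limma adjusted p = 0.563). The dimmer probe was at 3.07, 3.95, 4.01 and 3.44 in neo-liver, 4.24, 5.37, 5.44 and 4.75 in host liver, and 6.04, 5.77 and 5.86 in control liver, and was below background on all 4 host kidney arrays. On that probe the liver groups did not overlap in any pair, and neo-liver was at least 642-fold and host liver at least 1618-fold higher than host kidney. The brighter probe's level was the highest of all 15 arrays on host liver array 1 (10.33), where the 75th percentile was lowest (287). It was the lowest on host kidney array 3 (9.09), where that percentile was highest (874). Within neo-liver, host liver and host kidney its highest level also fell on the array with the lowest percentile, but not within control liver. The part of this scaling in the brighter probe's levels was not tested. Which probe reports the transcript was not tested, and the choice of the dimmer probe was made after its values were seen.

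By the dimmer probe, Slc10a1 in neo-liver was at 21.3 ± 6.16% of the control liver mean and in host liver at 54.9 ± 19.8%. The difference was -2.27 ± 0.43 for neo-liver minus control liver (limma adjusted p = 0.000676), -1.33 ± 0.40 for neo-liver minus host liver (adjusted p = 0.0138) and -0.94 ± 0.43 for host liver minus control liver (adjusted p = 0.126). By the brighter probe, neo-liver minus host liver was -0.62 ± 0.16 (adjusted p = 0.00539), and this value turned to 0.29 with quantile normalization and to 0.24 relative to plasma protein genes. Its neo-liver minus control liver difference was -0.39 ± 0.17 (adjusted p = 0.0702) and was not called. Its sign depended on the scaling, at 0.16 with quantile normalization, 0.05 relative to plasma protein genes and -0.83 with the kidney share subtracted (adjusted p = 0.0949, 0.844 and 0.0078). It was called with mouse as a block (adjusted p = 0.0368), with median centring (adjusted p = 0.0291) and without neo-liver array 1 (adjusted p = 0.0133). The dimmer probe's call against host liver was lost with the kidney share subtracted and its dilution divided out (-0.88, adjusted p = 0.117) and relative to plasma protein genes (-0.47, adjusted p = 0.350). Between 10.6% and 43.3% of the brighter probe's signal on a neo-liver array matched the array's kidney share.

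Slco1b2 (the liver organic anion carrier OATP1B2) was at 7.38, 7.11, 7.02 and 6.68 in neo-liver, 8.21, 8.03, 8.11 and 8.04 in host liver, and 8.11, 7.93 and 7.90 in control liver. Every neo-liver array lay below every other liver array, and host liver and control liver overlapped. The signal in neo-liver was 53.1 ± 10.4% of the control liver mean, and that in host liver 108.3 ± 6.22%. In the fit of all 15 arrays the difference was -1.05 ± 0.59 against host liver (limma adjusted p = 0.157) and -0.93 ± 0.64 against control liver (adjusted p = 0.240), and neither was called. That fit pools its error with host kidney, where the probe ranged from -7.60 to -3.85 and was above background on 1 of 4 arrays. Fitted on the 2 groups alone, both differences were called (adjusted p = 0.00221 and 0.00411), as they were with normexp (adjusted p = 0.000184 and 0.000211). Relative to plasma protein genes, in a fit without kidney, neither was called (-0.19 and -0.49, adjusted p = 0.404 and 0.0860). With dilution divided out, in a fit that holds kidney, they were -0.59 and -0.48 (adjusted p = 0.441 and 0.576).

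Slco1a1 (OATP1A1, a rodent carrier of organic anions and bile acids) was at 2.44, 2.34, 1.56 and 2.51 in neo-liver, 3.02, 3.17, 1.96 and 4.04 in host liver, and 3.75, 3.34 and 3.04 in control liver. Neo-liver lay below control liver on every array and overlapped host liver through host liver array 3. The difference from control liver was -1.16 ± 0.38 (limma adjusted p = 0.0204) and ended without neo-liver array 3 (adjusted p = 0.0571) or control liver array 1 (adjusted p = 0.0873). It also ended with quantile normalization, with dilution by kidney divided out and relative to plasma protein genes (adjusted p = 0.0670, 0.171 and 0.204). Neo-liver minus host liver was -0.84 ± 0.35 (adjusted p = 0.0627), and with mouse as a block it was called (adjusted p = 0.0240). Host kidney was low but measured, between -2.77 and -2.41.

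At the canalicular membrane, the bile salt export pump Abcb11 was called lower in neo-liver than in either liver, and Abcc2 (MRP2) was not called in either comparison. Abcb11 was at 4.40, 5.06, 5.71 and 5.08 in neo-liver, 5.24, 6.61, 6.51 and 5.99 in host liver, and 6.23, 6.11 and 6.41 in control liver. Its signal was 45.9 ± 16.8% of the control liver mean in neo-liver and 95.1 ± 36.0% in host liver. All neo-liver arrays lay below the control livers, and neo-liver and host liver overlapped through host liver array 1. The difference was -1.19 ± 0.33 against control liver (limma adjusted p = 0.00916) and -1.03 ± 0.31 against host liver (adjusted p = 0.0141). Both calls were lost with quantile normalization (-0.73 and -0.55, adjusted p = 0.0710 and 0.158), with the kidney share subtracted and its dilution divided out (-0.73 and -0.57, adjusted p = 0.110 and 0.178) and relative to plasma protein genes (-0.75 and -0.17, adjusted p = 0.279 and 0.756). The host liver one was also lost with the 2 groups alone (adjusted p = 0.0567). Host liver minus control liver was -0.16 ± 0.33 (adjusted p = 0.757). Host kidney lay between -4.69 and -4.02, and neo-liver exceeded it by 9.56 ± 0.31.

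Abcc2 was at 3.06, 3.89, 4.16 and 3.01 in neo-liver, 3.46, 4.37, 4.80 and 3.87 in host liver, and 3.50, 3.47 and 3.38 in control liver. The 3 groups overlapped in every pair, and the host tissues spread more widely than the control livers. Neo-liver minus control liver was 0.08 ± 0.34 (limma adjusted p = 0.853), with a 95% interval of -0.65 to 0.81. Host liver minus control liver was 0.68 ± 0.34 (adjusted p = 0.162). Neo-liver minus host liver was -0.59 ± 0.31 (adjusted p = 0.134), and mouse by mouse neo-liver lay below the host liver by 0.39 to 0.86, which the fit with mouse as a block called (adjusted p = 0.0241). Host kidney was at 1.56, 2.10, 2.30 and 1.55 (proximal tubule also carries MRP2), and between 3.44% and 13.5% of the signal on a neo-liver array matched the kidney share.

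The receptor Nr1h4 (FXR) was called lower in neo-liver than in both livers. It was at 4.43, 4.70, 4.55 and 4.01 in neo-liver, 5.28, 5.18, 4.94 and 4.59 in host liver, and 5.48, 5.40 and 5.28 in control liver. Neo-liver did not overlap control liver and overlapped host liver through host liver array 4. The difference was -0.97 ± 0.19 against control liver (limma adjusted p = 0.00103) and -0.58 ± 0.18 against host liver (adjusted p = 0.0171). The second of these was lost without neo-liver array 4 (adjusted p = 0.0564) and turned to 0.28 ± 0.24 relative to plasma protein genes. It was also lost at -0.17 with quantile normalization (adjusted p = 0.477), at -0.40 with dilution divided out (adjusted p = 0.146) and with the 2 groups alone (adjusted p = 0.0595). The control liver call was lost relative to plasma protein genes (-0.53, adjusted p = 0.159). Nr1h4 is also a kidney gene: host kidney ranged from 3.60 to 4.06, and the kidney share matched between 9.98% and 25.7% of the signal on a neo-liver array. Neo-liver minus host kidney was 0.59 ± 0.18 (adjusted p = 0.0136), with overlapping groups, and was not called with quantile normalization (0.42, adjusted p = 0.0526).

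Nr0b2 (SHP), the corepressor that FXR induces, was called lower in neo-liver minus host liver but not in neo-liver minus control liver. It was at -1.63, 0.44, 0.84 and 0.61 in neo-liver, 0.02, 2.41, 2.85 and 1.29 in host liver, and 0.75, 0.29 and 0.68 in control liver. Host liver was the most variable group, from 67.4% to 481% of the control liver mean, and 3 of its 4 arrays lay above all control livers. Neo-liver minus host liver was -1.58 ± 0.58 (limma adjusted p = 0.0387), with neo-liver lower in 4 of 4 mice by 0.68 to 2.01. That call was lost without host liver array 2 or 3 or without neo-liver array 1 (adjusted p = 0.100, 0.118 and 0.115). It was also lost with slide as a random block (adjusted p = 0.0502), quantile normalization (0.0640), the 2 groups alone (0.124), dilution divided out (0.153) and relative to plasma protein genes (0.441). Host liver minus control liver was 1.07 ± 0.63 (adjusted p = 0.234), and without host liver array 1 it was 1.61 (adjusted p = 0.0481). Neo-liver minus control liver was -0.51 ± 0.63 (adjusted p = 0.523), and without neo-liver array 1 it was 0.06. Host kidney lay between -3.46 and -3.09.

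**Figure D2:**
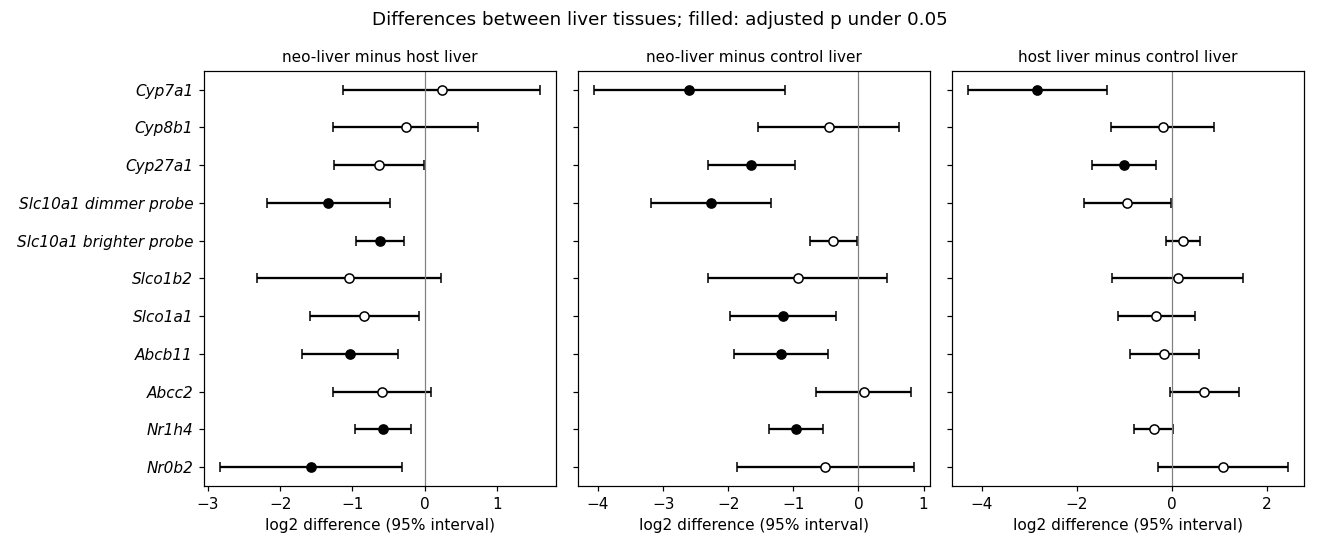
Log2 difference with its 95% interval (horizontal axis) for each bile acid gene in neo-liver minus host liver, neo-liver minus control liver and host liver minus control liver, from the limma fit of 15 arrays. Filled points are called at an adjusted p under 0.05. Cyp7a1 and Cyp27a1 are called lower in both neo-liver and host liver than in control liver, and Slc10a1, Abcb11, Nr1h4 and Nr0b2 are called lower in neo-liver than in host liver.

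Counted over the members, neo-liver minus host liver gave 0 members higher and 4 lower of 10, at a background of 17.1% of all genes called higher and 31.5% called lower. With mouse as a block, random or fixed, 7 members were called lower, with Cyp27a1, Slco1a1 and Abcc2 added, at a background of 39.4% of all genes called lower (random) or 37.2% (fixed). The median member difference was -0.62, against -0.21 over all genes tested. Neo-liver minus control liver gave 0 higher and 5 lower of 10, and 6 lower with the dimmer Slc10a1 probe, at a background of 20.4% higher and 29.8% lower, and the median was -0.95 against -0.15. In neo-liver minus control liver, 6 of 10 members did not overlap between the groups, all lower in neo-liver, against 35.2% of all genes. In neo-liver minus host liver, 1 of 10 did not overlap, Slco1b2, lower in neo-liver, against 22.9% of all genes. Host liver minus control liver gave 0 higher and 2 lower, Cyp7a1 and Cyp27a1, at a background of 13.4% higher and 11.2% lower, and the median was -0.18 against 0.08. The members' share called lower was near the background in neo-liver minus host liver. Fitted on the 2 groups alone, at a background of 21.2% lower, Abcb11, Nr1h4 and Nr0b2 were not called against host liver, nor was Cyp27a1 in host liver minus control liver (adjusted p = 0.0849). Quantile normalization called 0 members lower in neo-liver minus host liver, at a background of 16.6% lower. Neo-liver minus host liver and neo-liver minus control liver share the neo-liver arrays, and both comparisons with control liver share the 3 control livers. Against host kidney, 9 of 10 members were called higher in neo-liver, and 10 with the dimmer Slc10a1 probe, at a background of 23.2% higher and 29.5% lower. All 10 were called higher in host liver than in host kidney, at a background of 39.6% higher and 31.2% lower.

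Hepatocyte and kidney marker genes also differed between neo-liver and the livers, and their part in the members' differences was tested only through the scalings given here. Over all genes, 31.5% were called lower in neo-liver minus host liver and 29.8% in neo-liver minus control liver. Of 25 plasma protein genes of the hepatocyte tested, 0 were called higher and 19 lower in neo-liver minus host liver, and 0 higher and 10 lower in neo-liver minus control liver. Relative to the median of these genes on each array, 0 members were called lower in neo-liver minus host liver and 1, Cyp7a1, in neo-liver minus control liver, at -2.16 (adjusted p = 0.0307), with the dimmer Slc10a1 probe also called at -1.83 (adjusted p = 0.00827). The backgrounds under that scaling were 0.557% and 4.94% of all genes called lower. With the kidney share subtracted from each neo-liver array and its dilution divided out, 1 member was called lower against host liver, the brighter Slc10a1 probe at -0.61 (adjusted p = 0.0143). That probe's difference from host liver turned to 0.29 with quantile normalization. With the kidney share and its dilution taken out, 3 members were called lower against control liver: Cyp7a1 at -2.14, Cyp27a1 at -1.22 and Nr1h4 at -0.79 (adjusted p = 0.0253, 0.0134 and 0.0143). Under the same setting the dimmer Slc10a1 probe was at -1.82 against control liver (adjusted p = 0.00701) and was not called against host liver. The backgrounds were 27.5% and 28.3% lower against host liver and control liver. Cyp7a1 was therefore lower in neo-liver than in control liver under all 3 scalings, and so was the dimmer Slc10a1 probe. For Cyp7a1, host liver minus control liver was -3.25 relative to plasma protein genes (adjusted p = 0.00785).

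**Figure D3:**
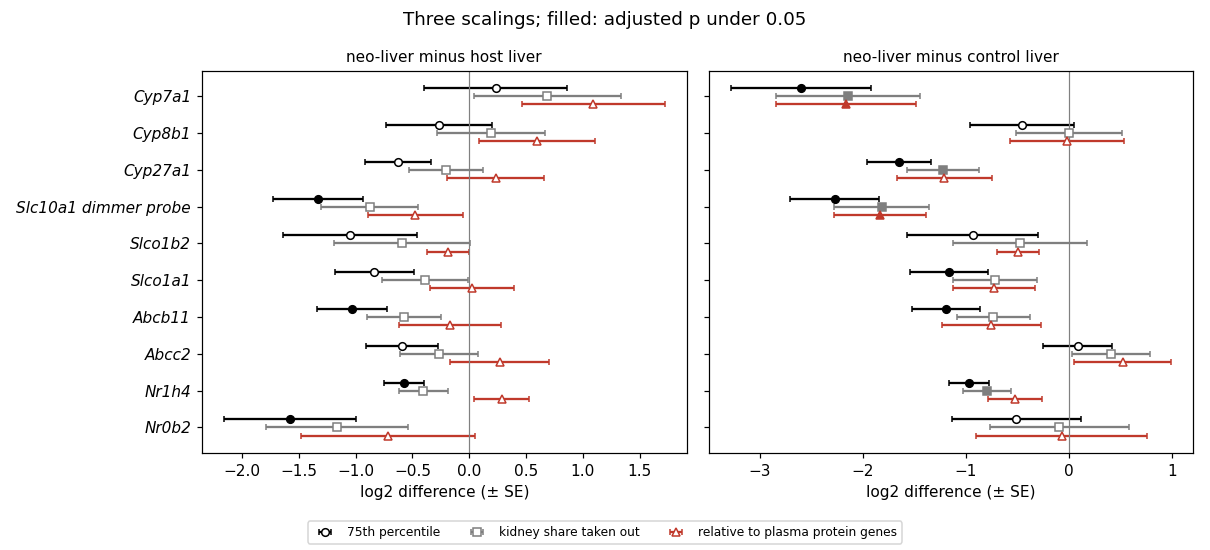
Log2 difference (horizontal axis, whiskers ± SE) of each bile acid gene in neo-liver minus host liver and neo-liver minus control liver, under 3 scalings: relative to the 75th percentile of the array, with the kidney share subtracted and its dilution divided out, and relative to hepatocyte plasma protein genes. Filled symbols are called at an adjusted p under 0.05. Cyp7a1 and the dimmer Slc10a1 probe are called lower than control liver under all 3, and against host liver no gene shown is called relative to plasma protein genes.

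Mice differed in the members' levels. Cyp7a1 was lowest in mouse 4 in both neo-liver and host liver, at 0.88 and 2.10. Abcb11 and Nr0b2 were lowest in mouse 1 in both tissues. The lowest mouse was the same in neo-liver and host liver for 6 of 10 members, taking the dimmer Slc10a1 probe. Within mice, Slco1b2 was 0.82 to 1.35 lower, Slc10a1 by the dimmer probe 1.17 to 1.43 lower and Abcb11 0.81 to 1.55 lower in neo-liver than in the host liver of the same number. Cyp7a1 was instead 0.67 to 0.75 higher in neo-liver in mice 1 to 3 and 1.21 lower in mouse 4. Host liver arrays 1 and 2 lay on one slide and arrays 3 and 4 on another.

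**Figure D4:**
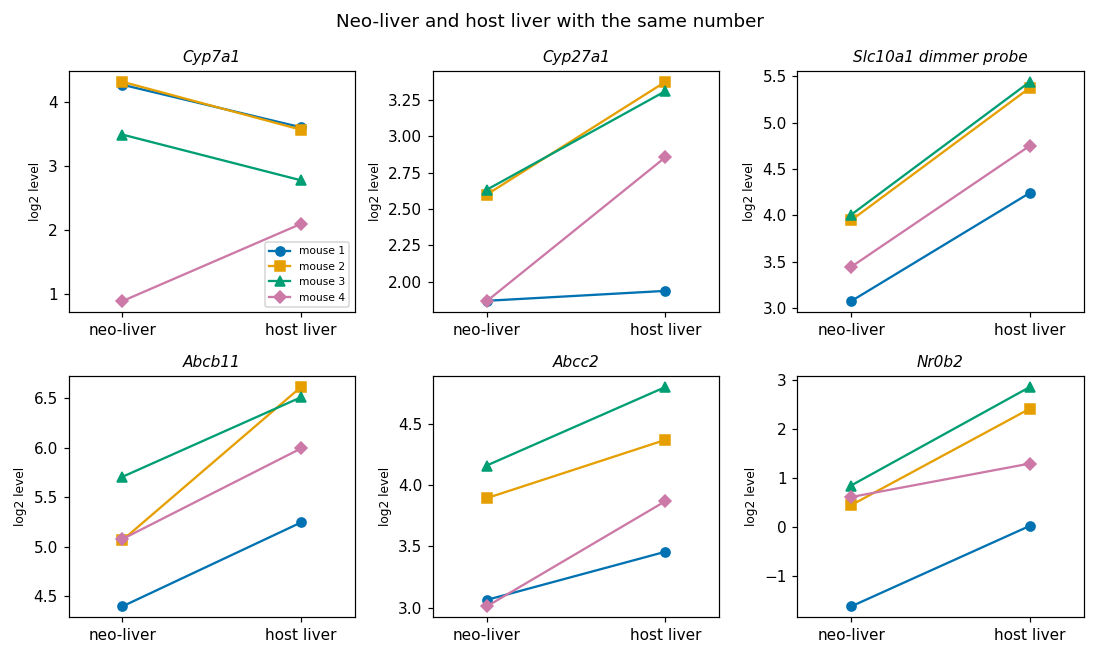
Log2 level (vertical axis) of 6 bile acid genes in neo-liver and in the host liver with the same replicate number, 1 line per mouse. For Slc10a1 by its dimmer probe, Abcb11, Abcc2 and Nr0b2 all 4 lines are lower at neo-liver, and for Cyp7a1 3 of 4 lines are higher there.

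Among the other genes of bile acid synthesis and conjugation, 20 were tested, with 1 called higher and 12 lower in neo-liver minus host liver (median -0.82) and 1 higher and 14 lower in neo-liver minus control liver (median -0.92). The medians over all genes tested were -0.21 and -0.15. Of all genes, 17.1% were called higher and 31.5% lower in neo-liver minus host liver, and 20.4% and 29.8% in neo-liver minus control liver. Over this list and the next 2 together, 33 genes were called lower in neo-liver minus host liver and 34 in neo-liver minus control liver, and 1 and 11 relative to plasma protein genes. Under that scaling, 0.557% and 4.94% of all genes were called lower, and the median of all genes moved by 0.86 and 0.44. Akr1d1, the reductase that forms the 5β-sterol ring of bile acids, averaged 1.51 ± 0.22 in neo-liver, 2.48 ± 0.44 in host liver and 3.87 ± 0.22 in control liver (SD, n = 4, 4 and 3). Neo-liver and host liver were both called lower than control liver, by a log2 difference of -2.36 ± 0.22 in neo-liver and -1.40 ± 0.22 in host liver (SE). Slc27a5, the liver's bile acid CoA ligase, averaged 7.28 ± 0.39 in neo-liver, against 8.69 ± 0.35 in host liver and 8.93 ± 0.08 in control liver, and was called lower than both. Hsd17b4, a peroxisomal enzyme of side-chain shortening, was 0.97 lower in neo-liver than host liver, and Cyp7b1, the oxysterol hydroxylase of the alternative route, averaged 2.29 ± 0.32 in neo-liver and 3.79 ± 0.30 in control liver, where it was called lower in neo-liver. The gene called higher than control liver was Ch25h, the cholesterol 25-hydroxylase, at least 3.44-fold, with all 3 control livers below background. Ch25h averaged -2.59 ± 1.08 in neo-liver and -1.37 ± 0.95 in host kidney, with overlap. In host liver minus control liver, 2 of 20 were called higher and 3 lower, at a background of 13.4% higher and 11.2% lower. Hsd3b7, an early ring-modifying enzyme, was 0.67 higher and Acnat1, an acyltransferase that conjugates acyl groups to amino acids, was 0.82 lower.

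Among other carriers of bile acids and bile lipids, 19 were tested, with 4 called higher and 6 lower in neo-liver minus host liver (median -0.51) and 3 higher and 6 lower in neo-liver minus control liver (median -0.37). The backgrounds over all genes were 17.1% higher and 31.5% lower against host liver, and 20.4% and 29.8% against control liver. The shares called in this list were near them. The means of this list were of the opposite sign to its medians, at 0.33 and 0.46 in these comparisons. The higher ones included carriers that kidney makes. Slc51a (the organic solute transporter alpha chain) averaged 1.04 ± 1.07 in neo-liver and 2.19 ± 0.66 in host kidney, was below background on all host liver and control liver arrays, and exceeded host liver by at least 32.2-fold in neo-liver. Slco1a6 averaged 0.66 ± 1.12 in neo-liver and 6.08 ± 0.18 in host kidney and exceeded host liver by at least 24.8-fold in neo-liver. Abcg2, a broad exporter, was 0.97 ± 0.22 higher than in host liver and 0.76 ± 0.24 higher than in control liver. Its level was 4.87 ± 0.45 in neo-liver and 6.04 ± 0.16 in host kidney, with neo-liver called lower. Lower in neo-liver than in host liver were Abcg5 (one chain of the biliary sterol exporter) at -1.14 ± 0.33, Slco2b1 at -1.06 ± 0.19 and Atp8b1, the canalicular phospholipid flippase, at -0.72 ± 0.17. The partner chain Abcg8 was 1.12 ± 0.42 lower than in control liver. In host liver minus control liver 1 carrier was higher, Slc10a2 (the apical sodium-dependent bile acid carrier) at 1.55 ± 0.53, and 1 was lower, Slc47a1 at -0.52 ± 0.15. The background there was 13.4% higher and 11.2% lower.

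Of 24 tested genes of bile acid signalling and transcriptional control, 2 were called higher and 15 lower in neo-liver minus host liver (median -0.78), and 2 higher and 14 lower in neo-liver minus control liver (median -0.90). The backgrounds over all genes were 17.1% higher and 31.5% lower, and 20.4% and 29.8%. Rxra, the heterodimer partner of FXR, was 1.31 ± 0.31 lower in neo-liver than host liver, and the xenobiotic receptors Nr1i2 (PXR) and Nr1i3 (CAR) were 1.27 ± 0.25 and 1.25 ± 0.34 lower. Against control liver, the liver transcription factors Onecut1 and Cebpa were 2.58 ± 0.48 and 1.81 ± 0.29 lower in neo-liver, and the bile acid sulfotransferase Sult2a8 was 1.96 ± 0.22 lower. The 2 genes higher in both comparisons were Vdr, the vitamin D receptor, and the coactivator Ppargc1a, and host kidney exceeded neo-liver for both. Vdr averaged 2.34 ± 0.88 in neo-liver and 4.15 ± 0.65 in host kidney and was below background on all host liver and control liver arrays. In host liver minus control liver, 2 were called higher and 3 lower of 24, at a background of 13.4% higher and 11.2% lower. Gpbar1, the membrane bile acid receptor TGR5, was 1.01 ± 0.11 lower, and Ncor1, a nuclear receptor corepressor, was 0.70 ± 0.18 higher.

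The genes nearest to each member were found over the 11 neo-liver, host liver and control liver arrays by the root mean square distance between centred log2 levels, as a description. The desaturase Scd3 lay at 0.60 from Cyp7a1, whose own spread was 1.53. Scd3 was 2.73 lower in neo-liver and 2.59 lower in host liver than in control liver. Cyp27a1 was nearest to Akr1c12, at 0.17, against its own spread of 0.77. Abcb11 was nearest to N4bp2l1, at 0.11 against 0.69, and the cytochrome P450 gene Cyp2d9 followed at 0.16. Slco1b2 was nearest to Sod1 and Ccdc58, at 0.11 and 0.12 against 0.51. Nr1h4 was nearest to Srbd1, at 0.12 against 0.45, Abcc2 to Cblc, at 0.15 against 0.53, and Slco1a1 to Rdh16f2, at 0.31 against 0.72. The dimmer Slc10a1 probe was nearest to Abhd15, at 0.25 against 0.99, and the brighter one to Kctd14, at 0.04 against 0.33. For Cyp8b1 and Nr0b2 the nearest genes, Eea1 and Dnmbp, stayed at 0.51 and 0.46, against own spreads of 0.73 and 1.13. These arrays share mice, slides and, in neo-liver, kidney RNA.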

How the data were processed

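RNA was measured on 15 one-colour arrays. Per the file headers, the authors' scanner files hold intensity values, background-subtracted and not scaled between arrays, made with Agilent Feature Extraction 10.10.1.1 (version per the submitters' processing notes). The authors also deposited log2 values, which were equal, within 0.01 for about 99.8% of probes, to the scanner's processed signal on a log2 scale after 1 constant was taken off each array, and these served as an alternative. The array was annotated on mm9.

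The analysed level is log2 processed signal minus the array's 75th percentile. Outlier-flagged spots (1924) were left out, spots of a probe were averaged (55681 probes), and a probe was kept if well above background on every array of at least 1 group (34984 probes, of which 14596 had no symbol and were not tested). The brightest kept probe stood for a gene, and 4004 genes had over 1 kept probe. All arrays entered 1 limma fit with group means (limma 3.58.1 in R 4.3.3, with data.table at version 1.17.8 and statmod 1.5.0). Adjusted p are two-sided and cover 15619 genes. The script was tested on simulated data. No array was saturated, and the number of arrays limits the precision.

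The members and gene lists were chosen with earlier results of these data known. Every member is named. Of each wider list and comparison, up to 3 rises and 3 falls were named, the largest among called genes with no overlap between groups. For likeness the 2 nearest genes were sought. Some genes these rules select are not reported here. Residuals of the 3 host tissues correlated within replicate numbers (r 0.179 to 0.577 over 12 pairs, and 12 of 12 arrays best with their own number), so numbers were taken as mice. The control livers share only numbers with them. Nothing says that the samples of a group came from separate experiments, so p-values measure the spread between these samples. Host kidney filled slide 1, neo-liver and control liver shared slide 2, and host liver filled slides 3 and 4, so host kidney and its slide cannot be told apart, and host liver also shared no slide with the groups it is compared with.

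The kidney share is the median, over 40 kidney markers with host kidney exceeding control liver by 8-fold or more, of an array's linear signal minus the control liver mean, divided by the same quantity for host kidney, in percent. Marker lists for other cells gave these counts in neo-liver minus host liver: kidney proximal tubule 16 higher and 1 lower of 20, loop, distal tubule and collecting duct 19 and 0 of 20, podocyte 7 and 0 of 8, bile duct 6 and 3 of 15, Kupffer cell 0 and 5 of 10, liver sinusoidal endothelium 1 and 8 of 10, and stellate cell 0 and 2 of 10. The background over all genes in that comparison was 17.1% higher and 31.5% lower. The proximal tubule list holds genes that liver also makes. Alternatives were quantile and median normalization, normexp, the deposited values, 2 other filters on dim probes, the mean of all probes, 2 groups alone, left-out arrays, mouse or slide as a block, removal of the kidney share and centring on 25 plasma protein genes. Dividing out dilution and the dimmer Slc10a1 probe were added after seeing the data. Normexp used median spot signals.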

Additional observations from a re-analysis of the deposited data

Results flagged for a closer look

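Among the 33 sets of arrays screened (each member, and each Slc10a1 probe, in each group of 4), 2 held an array far from the others by Dixon's ratio, and chance flags about 1 in 20. Nr0b2 was at -1.63 on neo-liver array 1, with the highest array of that group at 0.84. Abcb11 was at -4.02 on host kidney array 4, with the lowest array of that group at -4.69.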

How the results depend on the processing

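Members called lower in neo-liver minus host liver (4) became 0 with quantile normalization and relative to plasma protein genes, 2 with the 2 groups alone, 1 with the kidney share subtracted and its dilution divided out, and 7 with a replicate block, random or fixed. Quantile normalization also called 1 member higher there and 1 lower against host kidney in each of neo-liver and host liver. In neo-liver minus control liver the 5 became 3 with quantile normalization or with dilution divided out, and 1 relative to plasma protein genes. In host liver minus control liver the 2 became 1 with median centring, the 2 groups alone or plasma protein genes. They became 1 to 2 when single arrays were left out, which called 0 to 1 higher. The filter on all arrays also left 1, since it took Cyp7a1 out of the test rather than ending its call. Cyp7a1, Cyp8b1 and Slco1b2 were not above background on every host kidney array and went untested under that filter. Other genes below background in a group were likewise removed by it, which lowers its counts. Beside those 7 and the brighter Slc10a1 probe in neo-liver minus control liver, the replicate block changed no call of a member, and the slide as a random block moved no count by over 1.5 times but ended the call of Nr0b2 in neo-liver minus host liver (adjusted p = 0.0502). Host liver and host kidney shared no slide with another group, so the slide block cannot separate slide from tissue in their comparisons.

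Other bile acid genes called higher in neo-liver minus host liver (7) became 3 with the filter on all arrays, 1 with the kidney share subtracted with or without dilution divided out, and 14 relative to plasma protein genes, and those lower (33) became 16 with quantile normalization and 1 relative to plasma protein genes. In neo-liver minus control liver the 6 higher became 2 with the filter on all arrays and 3 with the kidney share subtracted, with or without dilution, and the 34 lower became 11 relative to plasma protein genes. In host liver minus control liver the 5 higher became 3 with quantile, normexp or the mean of all probes, 1 relative to plasma protein genes and 2 to 6 with arrays left out, and the 7 lower became 4 with median centring, 12 relative to plasma protein genes and 4 to 8 with arrays left out. In host liver minus host kidney the 11 lower became 6 with the filter on all arrays.

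Over all genes, neo-liver minus host liver called 2669 higher, which became 1476 (filter on all arrays), 1208 (kidney share subtracted), 1626 (dilution divided out) and 7562 (plasma protein genes), and 4921 lower, which became 2598 (quantile), 9116 (kidney share subtracted) and 87 (plasma protein genes). Neo-liver minus control liver called 3183 higher, which became 2011 (filter on all arrays) and 1600 (kidney share subtracted), and 4651 lower, which became 8257 (kidney share subtracted) and 771 (plasma protein genes). Host liver minus control liver called 2099 higher, which became 3243 (median centring), 1293 (2 groups alone), 253 (plasma protein genes) and 1206 to 2233 with arrays left out, and 1755 lower, which became 1069 to 1930 with arrays left out. Neo-liver minus host kidney called 3622 higher, and 5503 with no filter. Host liver minus host kidney called 4868 lower, and 3053 with the filter on all arrays. Higher calls were 35.2% of calls in neo-liver minus host liver, and 50.9% with quantile, 23.1% with median centring and 98.9% with plasma protein genes. They were 40.6% in neo-liver minus control liver, and 52.2% and 83.8% with quantile and plasma protein genes. They were 54.5% in host liver minus control liver, and 73.2% and 9.15% with median centring and plasma protein genes. Plasma protein centring moved the median of all genes by 0.86, 0.44 and -0.42 in these comparisons, quantile normalization by 0.14 in both neo-liver ones and median centring by -0.20 and 0.15 in those with host liver.

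Signs turned as follows. Relative to plasma protein genes, neo-liver minus host liver was 0.23 for Cyp27a1, 0.59 for Cyp8b1, 0.27 for Abcc2, 0.24 for Slc10a1, 0.025 for Slco1a1 and 0.28 for Nr1h4, neo-liver minus control liver was 0.052 for Slc10a1, and host liver minus control liver was -0.31 for Slco1b2 and -0.19 for Slc10a1. With quantile normalization Slc10a1, by its brighter probe, was 0.29 in neo-liver minus host liver, 0.16 in neo-liver minus control liver, -0.40 in neo-liver minus host kidney, -0.13 in host liver minus control liver and -0.69 in host liver minus host kidney. Host liver minus control liver for Slc10a1 was -0.94 by the dimmer probe and -0.35 by the mean of probes, and for Slco1b2 -0.0063 with normexp. Subtracting the kidney share put Abcc2 at -0.050 against control liver, and dividing out dilution put Cyp8b1 at 0.19 against host liver. With single arrays left out, sign turns came to -0.13 to 1.02 for Cyp7a1 and -0.57 to 0.13 for Cyp8b1 in neo-liver minus host liver, -0.13 to 0.26 for Abcc2 and -0.77 to 0.055 for Nr0b2 in neo-liver minus control liver, -0.019 to 0.20 for Slc10a1 in neo-liver minus host kidney, and -0.81 to 0.20 for Cyp8b1, -0.33 to 0.12 for Abcb11 and -0.66 to 0.035 for Slco1a1 in host liver minus control liver. Beyond the construction of each setting, the cause was not tested. Signal over background limits Cyp7a1, Cyp8b1 and the dimmer Slc10a1 probe in kidney, where only bounds can be given. It also limits Slco1b2, which was above background on 1 of 4 host kidney arrays and for which no bound was computed.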
